A study of Mus musculus with 70 samples.

Results

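Colon epithelial cells carrying GFP were compared between caMKK6 mice and control mice, all of them given doxycycline at the same dose. The comparison takes every library of the 2 groups, 3 from caMKK6 mice and 2 from control mice, which is 5 of the 23 colon libraries and of the 70 libraries of the series. The series followed primary and secondary senescence in chimeric mice in which mCherry marks the cells able to carry an active kinase and GFP marks the cells around them. In the caMKK6 mice that kinase is a constitutively active human MKK6, and control mice are coloured alike but have no such kinase. The question put to these 5 libraries is therefore what differs in colon cells that lack the kinase when their neighbours express it.

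The caMKK6 GFP group came from male C57BL/6 chimeric animals of the caMKK6 genotype at day 7 of doxycycline, 2 mg/mL in drinking water with 10 mg/mL sucrose. The control GFP group came from male C57BL/6 control animals with the same water at the same day. GFP cells of caMKK6 mice and of control mice without doxycycline, 3 libraries each, serve below as a second pair of groups. Epithelium was shaken free from the whole colon after chelation of calcium, the caecum being left out, dissociated with trypsin and sorted after dead cells had been gated out by a dye. Ages of the animals, the share of cells of each colour, the driver of the transgene and whether several lines were used are not given in the labels. Each GFP library compared is 1 animal, but the p-values do not measure the spread between these animals alone. They rest on a spread pooled over all colon libraries, other groups and mCherry cells included. GFP and mCherry libraries of the same animal entered the main fit as independent, although their estimated correlation was 0.473. Bulk libraries cannot tell a change in the number of cells of a type from a change in RNA per cell.

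MKK6 is the kinase that phosphorylates and switches on p38, a stress-activated kinase whose sustained activity can halt the cell cycle and lead to senescence. Senescent cells release cytokines, growth factors and proteases, and neighbours exposed to them can themselves stop dividing or change state, which is called secondary or bystander senescence. The colon epithelium renews itself within days from stem cells at the crypt base, through dividing progenitors, into absorptive colonocytes, mucus-filled goblet cells and rarer endocrine and tuft cells.

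Values are FPKM, the authors' reads scaled by transcript length and by library size. In genes with a known exon length the 3 caMKK6 GFP libraries held 8230472, 8416072 and 12713865 reads, and the 2 control GFP libraries held 15389574 and 13264905. The libraries did not group by genotype alone. caMKK6 library 1 correlated across genes at r = 0.937 and 0.93 with the other caMKK6 libraries, which correlated with each other at 0.987. The control libraries correlated with each other at only 0.92. With caMKK6 libraries 2 and 3, control library 1 correlated at 0.945 and 0.934 and control library 2 at 0.94 and 0.954. These correlations cannot tell which control stood apart. The controls also differed in cell markers: the 32 absorptive colonocyte markers summed to 22900 FPKM in control library 1 and 7790 FPKM in control library 2. Results are therefore given with and without caMKK6 library 1 and control library 1 where these change them. All 12 general epithelial markers were above 1 FPKM in at least 1 of the 5 libraries, while all 11 endothelial and all 8 B and plasma cell markers of the lists were below 1 FPKM in every one.

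The transcripts of the construct were read first, as a check of the labels. GFP was abundant in every library, at 912, 656 and 619 FPKM in caMKK6 GFP cells and 711 and 577 FPKM in control GFP cells. Human MKK6 stood at 116, 8.5 and 10.6 FPKM in caMKK6 GFP cells and was listed at 0 in both control GFP libraries. The caMKK6 GFP libraries thus held transgene RNA that the sorted population should lack. Relative to the mCherry cells of the same animal, this was 4.37% of the MKK6 level for caMKK6 library 1, 0.527% for library 2 and 0.876% for library 3. The same ratio for mCherry RNA was 3.73%, 0.659% and 1.14% in these libraries and 0.115% and 0.102% in the 2 control GFP libraries. With the mCherry ratio of each library used to subtract its partner, 597 genes rose and 214 fell, against 595 and 214 without the subtraction. In the other direction, GFP RNA in the mCherry partner was 19.6%, 0.512% and 2.44% of the GFP library level in caMKK6 animals. In control animals it was 5.99% and 19.7%. The part of GFP cells in the mCherry values given below was not tested.

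Of 11542 genes tested, 595 rose and 214 fell in caMKK6 GFP cells (limma on log2(FPKM + 1), Benjamini-Hochberg adjusted p below 0.05, called genes from here on). That is 7.01% of all genes tested, 5.16% for rises and 1.85% for falls. Counts of called genes in the lists below are to be read beside these shares. The log2 fold change had a median of 0.05 over all genes tested. The groups did not overlap in 808 of the 809 called genes, where all 3 caMKK6 libraries lay above both control libraries in 20.3% of all genes tested and below both in 10% of them. The balance of rises and falls moved with the scaling: 73.5% of calls were rises in the values as deposited, 62.8% after scaling to a common median and 59.5% after quantile normalization.

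How firm the calls are depended on single animals. Without control library 1, 186 genes rose and 202 fell. Without caMKK6 library 1, 240 rose and 81 fell. Without control library 2, 858 rose and 413 fell, and without caMKK6 library 3, 722 rose and 436 fell. A call held through all 5 such omissions for 66 rises and 21 falls. The fit shares its estimate of spread with all 23 colon libraries. With the 5 libraries alone and 3 residual degrees of freedom it called 6 genes, all higher in caMKK6 GFP cells, namely Slpi, Trf, Pla2g5, Tpm3-rs7, Defb45 and the pseudogene Cox5b-ps, with 0 falls.

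**Figure D1:**
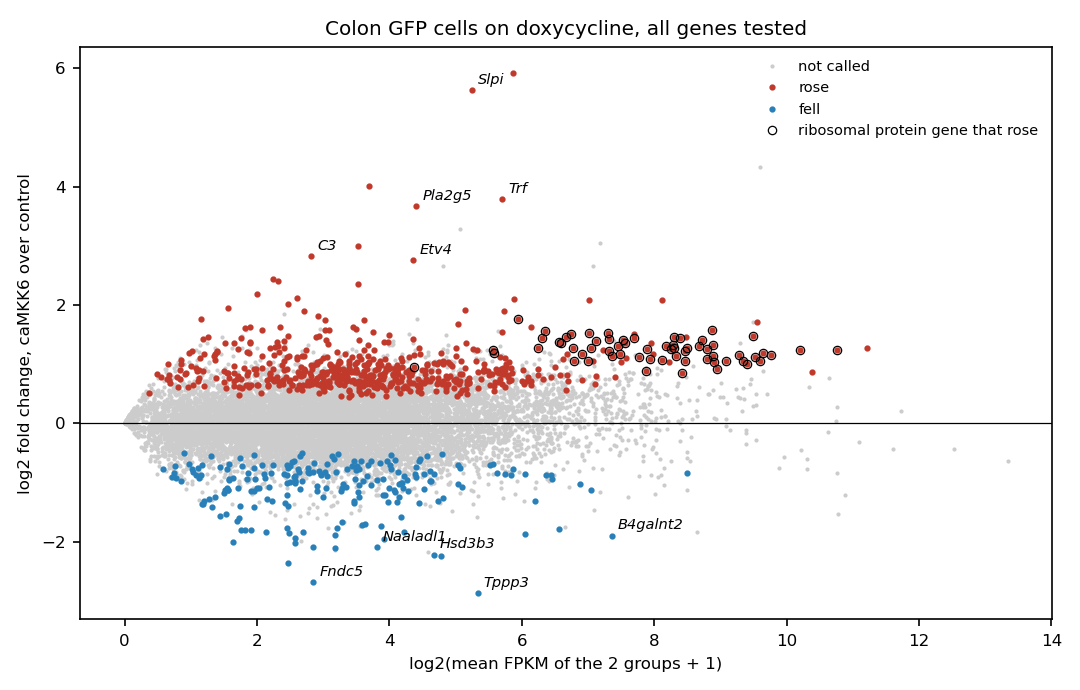
Log2 fold change of caMKK6 GFP over control GFP cells on doxycycline (vertical axis) against the log2 of the mean FPKM of the 2 groups plus 1 (horizontal axis), 1 point for each of 11542 genes. Red points are the 595 rises, blue points the 214 falls, and circles the ribosomal protein genes that rose, which lie at log2 fold changes above 0 at medium to high levels.

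The 12 largest rises that were named had varied roles: Slpi, Tpm3-rs7, Trf, Pla2g5, Defb45, C3, Etv4, Lrg1, Gstp3, Wfdc17, Hspb1 and Depp1. The pseudogene Cox5b-ps, passed over by the rule for names, had a larger log2 fold change of 5.92. Slpi, the secretory leukocyte protease inhibitor that restrains neutrophil elastase at mucosal surfaces, stood at 108, 58.0 and 53.6 FPKM in caMKK6 GFP cells and 0.422 and 0.425 FPKM in control GFP cells. All 3 caMKK6 libraries were far above both controls, with a log2 fold change of 5.63 ± 1.02 (SE) and an adjusted p of 0.0066 by limma with the Benjamini-Hochberg adjustment. Animals without doxycycline also made it: 20.3, 0.525 and 12.1 FPKM in caMKK6 GFP cells and 26.7, 15.1 and 7.75 FPKM in control GFP cells, so the treated controls were lower than all 6 untreated animals. With voom on the recovered reads the adjusted p of Slpi was 0.075.

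Trf, transferrin, the iron carrier of plasma, stood at 80.5, 94.3 and 112 FPKM in caMKK6 GFP cells and 3.84 and 8.86 FPKM in control GFP cells. Its log2 fold change was 3.79 ± 0.51 (adjusted p = 0.00094 by limma), and every untreated library of either genotype lay between 4.22 and 20.7 FPKM. Pla2g5, a secreted phospholipase A2 that frees fatty acids from phospholipids, stood at 34.4, 35.8 and 44.6 FPKM in caMKK6 GFP cells and 1.94 and 2.21 FPKM in control GFP cells. It had the smallest adjusted p of the comparison, 7.3e-06 by limma, at a log2 fold change of 3.67 ± 0.32. C3, the central component of complement, stood at 13.8, 7.75 and 12.5 FPKM in caMKK6 GFP cells and 0.81 and 0.614 FPKM in control GFP cells, a log2 fold change of 2.82 ± 0.37 (adjusted p = 0.00094 by limma). Calls of all 3 genes held whichever library was left out.

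Other secreted products rose with them. Defb45, a beta-defensin, stood at 21.7, 19.3 and 17.3 FPKM in caMKK6 GFP cells and 1.68 and 1.46 FPKM in control GFP cells. Lrg1, a leucine-rich glycoprotein of the acute phase, stood at 16.3, 2.1 and 4.54 FPKM in caMKK6 GFP cells and 0.0884 and 0.458 FPKM in control GFP cells. Library 1 carried most of the Lrg1 signal, and the adjusted p by limma was 0.045 with it and 0.17 without it. Defb45 had an adjusted p of 0.016, which became 0.055 without control library 1, and that of Lrg1 became 0.13 without control library 1 and 0.07 without control library 2.

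Slpi belongs to the genes with a WAP domain, a small cysteine-rich fold shared by antiproteases and antibacterial peptides. This family was singled out after its values were seen. Of its 15 genes, 5 passed the filter, 4 of them rose (Slpi, Wfdc2, Wfdc17 and Wfdc18) and 0 fell, and the median log2 fold change was 2.09. Over all genes tested 5.16% rose. Wfdc18 had an adjusted p of 0.048 by limma, which became 0.18 without caMKK6 library 1. Its log2 fold change of 1.9 became 1.15 without control library 1. Wfdc2 stood at 502, 472 and 357 FPKM in caMKK6 GFP cells and 144 and 73.2 FPKM in control GFP cells, a log2 fold change of 2.09 ± 0.48 (adjusted p = 0.018 by limma). Wfdc17 was lower, at 9.05, 2.56 and 5.37 FPKM in caMKK6 GFP cells and 0.584 and 0.135 FPKM in control GFP cells (log2 fold change 2.19 ± 0.48, adjusted p = 0.015 by limma). Short related genes such as these can share reads, and how the authors treated such reads is not given in the sources used here. Without caMKK6 library 1, 1 of the 5 rose, and without control library 1, 3 did: the adjusted p was 0.054 for Wfdc2 and 0.057 for Wfdc17 without caMKK6 library 1, and 0.087 for Wfdc2 without control library 2.

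Across the wider list of antimicrobial and mucosal defence the median log2 fold change was 0.51. That median became 0.1 without caMKK6 library 1. With the length trend of each library removed, as described below, it was -0.07, with 2 rises and 1 fall. In the main fit 3 of the 26 genes tested rose and 0 fell, where 5.16% of all genes tested rose. Besides Slpi these were Nos2, the inducible nitric oxide synthase, and Duoxa2, the maturation factor of the hydrogen peroxide producing oxidase Duox2. Nos2 stood at 4.19, 1.54 and 1.9 FPKM in caMKK6 GFP cells and 0.14 and 0.323 FPKM in control GFP cells, a log2 fold change of 1.46 ± 0.25 (adjusted p = 0.0063 by limma). Duoxa2 stood at 27.3, 7.3 and 13.4 FPKM in caMKK6 GFP cells and 3.4 and 4.46 FPKM in control GFP cells, a log2 fold change of 1.62 ± 0.35 (adjusted p = 0.014 by limma, 0.066 without control library 1). In mCherry cells of the same animals Nos2 was higher again, at 20.1, 17 and 16.9 FPKM in caMKK6 animals and 0.257 and 0.139 FPKM in controls. The antibacterial lectin Reg3b did not pass: it stood at 3340, 292 and 422 FPKM in caMKK6 GFP cells and 2.56 and 385 FPKM in control GFP cells, and the groups overlapped.

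**Figure D2:**
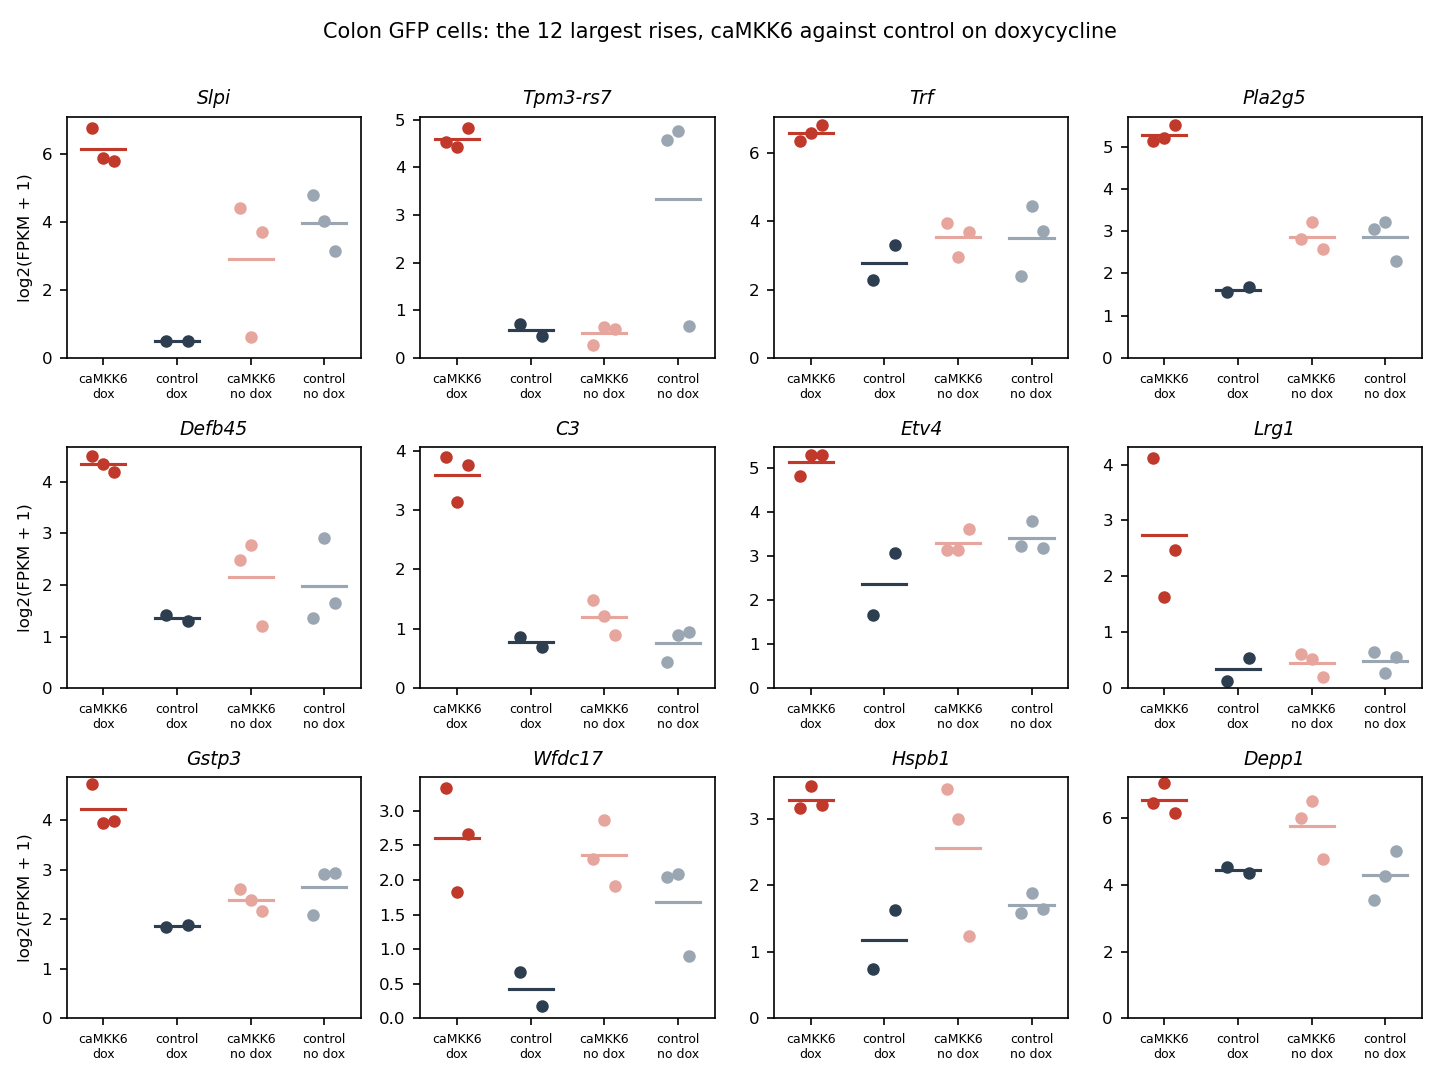
Log2(FPKM + 1) of the 12 largest rises in each GFP library (points) and group mean (line), for caMKK6 and control animals with doxycycline, then for both genotypes without it. Slpi, Pla2g5, Trf, C3 and Etv4 are separated in the treated pair, while Tpm3-rs7 is also high in 2 untreated control libraries.

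Signalling genes around the kinase cascades moved in a few members only. Of 19 p38 and MAP kinase regulators tested 3 rose and 0 fell, where 5.16% of all genes tested rose. The median log2 fold change of the 19 was 0.18. Hspb1, the small heat shock protein phosphorylated downstream of p38, stood at 7.99, 10.2 and 8.25 FPKM in caMKK6 GFP cells and 0.664 and 2.09 FPKM in control GFP cells, a log2 fold change of 2.11 ± 0.49 (adjusted p = 0.018 by limma). Untreated levels of Hspb1 were 9.89, 6.97 and 1.37 FPKM in caMKK6 GFP cells and 2.01, 2.68 and 2.14 FPKM in control GFP cells. Its log2 fold changes with and without doxycycline differed by 1.25 ± 0.65 (adjusted p = 0.32 by limma). Gadd45b, which binds the p38-activating kinase MTK1, stood at 19.6, 17.2 and 14.7 FPKM in caMKK6 GFP cells and 7.28 and 5.24 FPKM in control GFP cells, a log2 fold change of 1.33 ± 0.27 (adjusted p = 0.011 by limma). Gadd45g, of the same family, had a log2 fold change of 1.08 ± 0.29 (adjusted p = 0.033 by limma). The call of Gadd45b held through every omission, that of Hspb1 had an adjusted p of 0.098 without control library 1, and that of Gadd45g was 0.053 without control library 1, 0.13 without control library 2 and 0.1 without caMKK6 library 1. The mouse gene of the kinase itself, Map2k6, stood at 6.94, 8.76 and 11.4 FPKM in caMKK6 GFP cells and 6.41 and 7.81 FPKM in control GFP cells (adjusted p = 0.51 by limma).

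On the ERK side, 2 of 18 output genes rose and 0 fell, where 5.16% of all genes tested rose. The median log2 fold change of the 18 was 0.02. Etv4, a transcription factor of the ETS family induced by growth factor signalling, stood at 27.2, 38 and 38.1 FPKM in caMKK6 GFP cells and 2.18 and 7.37 FPKM in control GFP cells. Its log2 fold change of 2.76 ± 0.42 (adjusted p = 0.0029 by limma) held through every omission, and untreated libraries lay between 7.75 and 12.9 FPKM. Dusp4, a phosphatase that inactivates MAP kinases in the nucleus, stood at 10.7, 10.9 and 8.16 FPKM in caMKK6 GFP cells and 2.72 and 3.22 FPKM in control GFP cells, a log2 fold change of 1.45 ± 0.31 (adjusted p = 0.013 by limma, 0.06 without control library 1). Dusp6, the ERK phosphatase usually read as a gauge of ERK activity, overlapped at 32.9, 32.7 and 29.1 FPKM in caMKK6 GFP cells and 43.6 and 20.8 FPKM in control GFP cells. Map2k1, the gene of MEK1, stood at 58.2, 59.5 and 53.1 FPKM in caMKK6 GFP cells and 61.2 and 27.7 FPKM in control GFP cells (adjusted p = 0.3 by limma). Depp1, a target of FOXO factors, rose as well: 86, 131 and 69.5 FPKM in caMKK6 GFP cells, 22.1 and 19.6 FPKM in control GFP cells, log2 fold change 2.1 ± 0.47 (adjusted p = 0.016 by limma, 0.053 without control library 1). Untreated levels of Depp1 were 62.9, 90.2 and 26.5 FPKM in caMKK6 GFP cells and 10.6, 18.4 and 31.5 FPKM in control GFP cells. Its log2 fold changes with and without doxycycline differed by 0.61 ± 0.63 (adjusted p = 0.64 by limma).

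Genes usually read as signs of senescence were not called with all 5 libraries. None of the 6 inhibitors of cyclin-dependent kinases that passed the filter was called, none of 23 p53 targets and none of 38 genes of DNA replication and mitosis, with median log2 fold changes of 0.07, -0.05 and 0.35. Cdkn1a, which encodes p21, stood at 56.9, 39.0 and 33.6 FPKM in caMKK6 GFP cells and 108 and 24.0 FPKM in control GFP cells. Cdkn2b, which encodes p15, overlapped in the same way, at 48.1, 26.7 and 24.6 FPKM in caMKK6 GFP cells and 75.5 and 12.8 FPKM in control GFP cells. In both genes control library 1 was the highest of the 5 and control library 2 the lowest. Without control library 2 both were called as falls by limma, Cdkn1a at -1.34 (adjusted p = 0.019) and Cdkn2b at -1.23 (0.044), and without control library 1 their log2 fold changes were 0.79 (0.14) and 1.24 (0.064). The median of the replication and mitosis genes turned to -0.17 without control library 1, and was 0.93 with 2 rises without control library 2.

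Cdkn2a was listed at 0.201, 0 and 0 FPKM in caMKK6 GFP cells and 0 in both control GFP libraries, and did not pass the filter. Mki67, the proliferation antigen, stood at 11.1, 39.0 and 59.1 FPKM in caMKK6 GFP cells and 26.9 and 72.9 FPKM in control GFP cells (adjusted p = 0.52 by limma). Lmnb1, the nuclear lamina gene that falls in many senescent cells, stood at 21.8, 21.3 and 32.5 FPKM in caMKK6 GFP cells and 15.2 and 37.7 FPKM in control GFP cells (adjusted p = 0.95 by limma). The groups overlapped in Mki67 and Lmnb1 as they did in Cdkn1a and Cdkn2b.

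Of 25 secreted factors of the senescence-associated list that passed the filter, 2 rose and 0 fell, and the median log2 fold change was 0.31. Cxcl10, an interferon-induced chemokine, stood at 4.13, 2.02 and 1.67 FPKM in caMKK6 GFP cells and 0.525 and 0.541 FPKM in control GFP cells, a log2 fold change of 1.17 ± 0.31 (adjusted p = 0.032 by limma). Lif, a cytokine of the interleukin-6 family, stood at 1.22, 1.88 and 1.96 FPKM in caMKK6 GFP cells and 0.443 and 0.824 FPKM in control GFP cells, a log2 fold change of 0.72 ± 0.21 (adjusted p = 0.049 by limma). Both calls are fragile: without control library 1 the adjusted p was 0.086 for Cxcl10 and 0.19 for Lif. That of Cxcl10 was also 0.065 without control library 2 and 0.12 without caMKK6 library 1, and that of Lif was 0.086 without caMKK6 library 2 and 0.079 without caMKK6 library 3. Il6 was listed at 0.0969, 0 and 0 FPKM in caMKK6 GFP cells and 0 in both controls. Gdf15, a stress-induced cytokine, stood at 23, 38.7 and 23.1 FPKM in caMKK6 GFP cells and 9.81 and 8.25 FPKM in control GFP cells. Its groups did not overlap, but the adjusted p was 0.052 by limma at a log2 fold change of 1.51 ± 0.46. Cxcl10 was also the 1 gene of 39 in the interferon list to be called.

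Ribosomal protein genes formed the broadest group among the rises. All 26 on the list rose, with a median log2 fold change of 1.27, where 5.16% of all genes tested rose. Over the whole family of cytosolic ribosomal proteins, taken by symbol after the values were seen, 82 of 87 genes passed the filter, 63 rose and 0 fell. These genes encode the structural proteins of the small and large subunits, which translating cells make in matched amounts. Rpl10a stood at 154, 115 and 94 FPKM in caMKK6 GFP cells and 39.6 and 39.6 FPKM in control GFP cells, a log2 fold change of 1.56 ± 0.24 (adjusted p = 0.0029 by limma). Rps6, whose product is phosphorylated downstream of mTOR, stood at 545, 388 and 399 FPKM in caMKK6 GFP cells and 159 and 205 FPKM in control GFP cells, a log2 fold change of 1.27 ± 0.21 (adjusted p = 0.0044 by limma). Rpl12 stood at 596, 417 and 371 FPKM in caMKK6 GFP cells and 136 and 201 FPKM in control GFP cells, a log2 fold change of 1.45 ± 0.23 (adjusted p = 0.0036 by limma).

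Summed over the family, ribosomal protein genes took 12.9%, 10.6% and 8.81% of all FPKM in caMKK6 GFP cells and 4.7% and 5.88% in control GFP cells. Without doxycycline the share was 6.56%, 7.53% and 5.64% in caMKK6 GFP cells and 6.55%, 6.97% and 7.09% in control GFP cells. The treated caMKK6 libraries were thus above every untreated library, and 1 treated control was below every untreated library while the other lay inside their range. In mCherry cells of the same treated animals the share was 9.89%, 9.12% and 8.36% in caMKK6 mice and 5.25% and 5.57% in controls. Many ribosomal protein genes have processed pseudogenes of near-identical sequence, so the level of a single member is uncertain. Without control library 1, 7 of the 26 listed genes rose, and without caMKK6 library 1, 18 did.

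**Figure D3:**
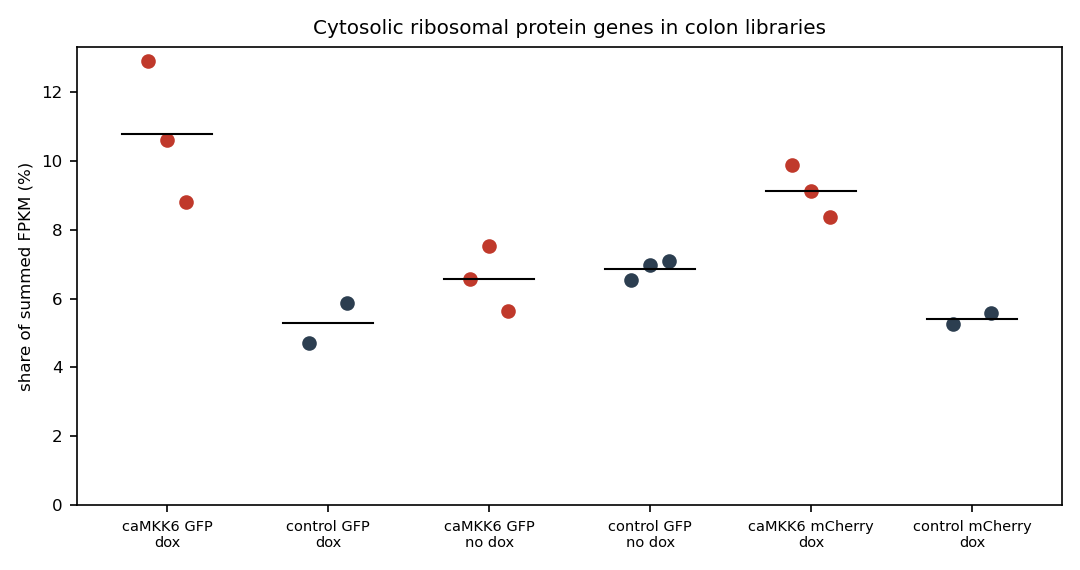
Share of all FPKM taken by the 87 cytosolic ribosomal protein genes in each colon library (points, percent) with the group mean (line), for GFP cells with and without doxycycline and mCherry cells with it. The 3 treated caMKK6 GFP libraries lie at 8.81% to 12.9%, above the 4.7% and 5.88% of the treated controls.

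Transcripts of ribosomal proteins and elongation factors typically begin with a C followed by a run of pyrimidines, a tract through which mTOR signalling adjusts their translation. The starts of family members are shown because the tract is a feature that the comparison did not use. A tract was counted where a C followed by at least 4 further C or T began within 5 bases of the first listed RefSeq start (build GRCm38.p6). It was found in 29 of the 62 ribosomal protein genes tested with a promoter in the table (46.8%), in 21 of the 47 of these that rose (44.7%), in 88 of 421 other rises (20.9%), in 30 of 165 falls (18.2%) and in 1862 of all 9261 genes tested with a promoter (20.1%). Of 16 ribosomal protein genes whose call held through every omission 13 had a promoter and 10 of these a tract. The 80 bases around the start, 40 of them before it, follow for 5 of the 10, with the tract in capitals. As counted, Rpl35 (chr2:39005092-39005171, minus strand) and Rpl27a (chr7:109519155-109519234, plus strand) have the longest tracts. Rpl12 (chr2:32961672-32961751, plus strand), Rps6 (chr4:86857328-86857407, minus strand) and Rps9 (chr7:3704001-3704080, plus strand) have shorter ones. A run that begins more than 5 bases before the start is counted only in part. A match describes these letters and is no measure of translation.
Rpl35: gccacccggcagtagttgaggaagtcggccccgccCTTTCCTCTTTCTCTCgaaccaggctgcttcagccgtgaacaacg
Rpl27a: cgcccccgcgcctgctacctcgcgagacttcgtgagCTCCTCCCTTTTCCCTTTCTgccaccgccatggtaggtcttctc
Rpl12: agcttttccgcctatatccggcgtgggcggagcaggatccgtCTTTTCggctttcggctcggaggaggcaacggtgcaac
Rps6: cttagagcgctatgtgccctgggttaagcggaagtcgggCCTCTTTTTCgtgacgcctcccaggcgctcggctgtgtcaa
Rps9: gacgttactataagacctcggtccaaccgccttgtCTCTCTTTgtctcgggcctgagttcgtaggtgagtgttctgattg

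The rest of the translation machinery rose in part. Of 6 elongation factor genes tested 5 rose and 0 fell, and of 53 initiation factor genes 11 rose and 0 fell, both families taken by symbol after the values were seen. Over all genes tested 5.16% rose. Eef1a1, which delivers aminoacyl-tRNA to the ribosome, stood at 4410, 3090 and 2670 FPKM in caMKK6 GFP cells and 1150 and 1640 FPKM in control GFP cells, a log2 fold change of 1.27 ± 0.26 (adjusted p = 0.012 by limma). Eif4a1, the helicase that unwinds the leader of messenger RNA, stood at 141, 85.6 and 103 FPKM in caMKK6 GFP cells and 54.5 and 70.1 FPKM in control GFP cells, a log2 fold change of 0.79 ± 0.2 (adjusted p = 0.027 by limma). Among 76 mitochondrial ribosomal protein genes 13 rose and 0 fell, with a median log2 fold change of 0.52. Of 86 respiratory chain genes 0 were called by limma, with a median of 0.44, beside 0.05 for all genes tested. Without caMKK6 library 1 their median was 0.14, beside 0.08 for all genes. With the length trend of each library removed it was 0.08, beside -0.02. Their summed share of FPKM was 4.97%, 3.67% and 3.32% in caMKK6 GFP cells and 3.62% and 2.84% in control GFP cells, and the groups overlapped. Without control library 1 the adjusted p was 0.07 for Eef1a1 and 0.12 for Eif4a1, and without caMKK6 library 1 it was 0.077 for Eif4a1. The counts were then 1 of 6, 1 of 53 and 2 of 76 without control library 1, and 2, 3 and 3 without caMKK6 library 1.

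Mitochondrially encoded genes went the other way. Of 13 listed 7 passed the filter and the other 6 were listed at 0 in all 5 libraries, mt-Co2 among them. All 7 had a log2 fold change below 0, at a median of -0.63, with 0 rises and 2 falls, where 1.85% of all genes tested fell. The 2 were mt-Nd4 and mt-Nd6, which encode subunits of complex I. mt-Nd6 stood at 281, 246 and 246 FPKM in caMKK6 GFP cells and 426 and 499 FPKM in control GFP cells, a log2 fold change of -0.84 ± 0.23 (adjusted p = 0.037 by limma, 0.054 to 0.11 when any 1 library was left out). mt-Nd4 kept its call in 1 of the 5 omissions, with an adjusted p of 0.07 to 0.16 in the other 4. The list took 8.2%, 5.48% and 4.75% of all FPKM in caMKK6 GFP cells and 8.76% and 11% in control GFP cells. With the length trend removed 5 of the 7 fell, and with median scaling 0 did.

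Building of ribosomes was represented by 22 genes, of which 4 rose and 0 fell at a median log2 fold change of 0.46. They were Rrp9, a component of the particle that processes ribosomal RNA, Polr1c, a subunit shared by RNA polymerases I and III, Noc4l, of the small subunit pathway, and Pes1, of the large subunit pathway. Rrp9 changed most, at 12, 7.8 and 6.34 FPKM in caMKK6 GFP cells and 3.37 and 4.23 FPKM in control GFP cells, a log2 fold change of 0.98 ± 0.23 (adjusted p = 0.021 by limma). Without caMKK6 library 1 none of the 4 was called, and likewise without control library 1, where the adjusted p of Rrp9 was 0.069 and 0.088.

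Exon length moved with these results. Called genes that rose had a median summed exon length of 2741 bases and those that fell 6195 bases, against 4330 bases over all genes tested. Split into 5 equal bins from the shortest to the longest exon length, 9.67%, 8.03%, 4.99%, 2.41% and 1.07% of genes rose while 0.579%, 1.03%, 1.6%, 2.72% and 3.3% fell. The median log2 fold change over the same bins was 0.37, 0.19, 0.07, -0.07 and -0.26. In the untreated pair it was 0, -0.02, -0.05, -0.07 and -0.1. With the length trend of each library removed, an alternative chosen after seeing the data, 360 genes rose and 290 fell, and 22 of the 26 listed ribosomal protein genes rose. The part of length in the calls was not tested further.

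**Figure D4:**
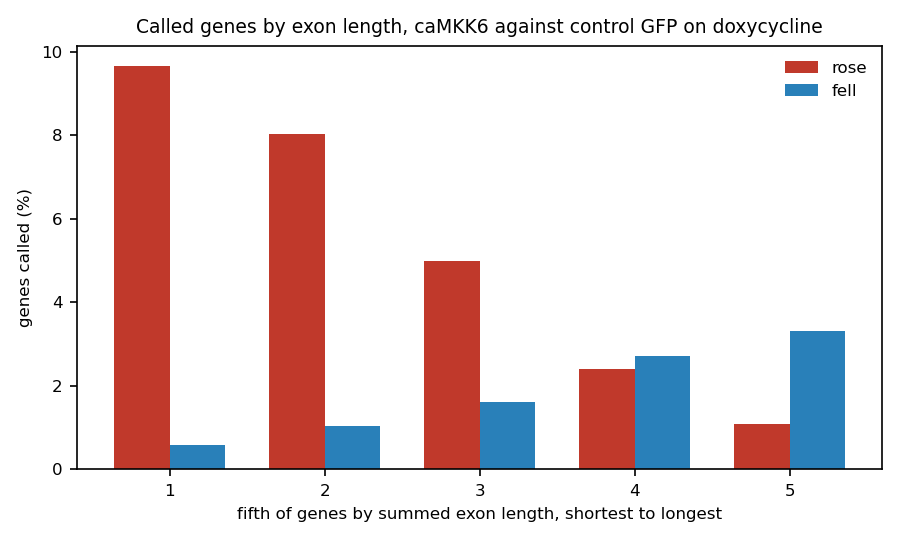
Percent of genes that rose (red) and fell (blue) in caMKK6 GFP cells on doxycycline, in 5 equal bins of genes by summed exon length from shortest to longest. Rises go down from 9.67% to 1.07% and falls go up from 0.579% to 3.3% along the bins.

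Some detoxification genes rose too. Targets of NRF2, the transcription factor that switches on antioxidant genes, had a median log2 fold change of 0.35. Of 21 tested 6 rose and 0 fell, where 5.16% of all genes tested rose. They were Cbr3, Gsta4, Gsta3, Gpx2, Gsta1 and Gstm1, which encode a carbonyl reductase, glutathione transferases and a gut glutathione peroxidase. Gsta4, which conjugates glutathione to lipid aldehydes, stood at 118, 105 and 93.5 FPKM in caMKK6 GFP cells and 27.1 and 40.6 FPKM in control GFP cells, a log2 fold change of 1.63 ± 0.33 (adjusted p = 0.012 by limma). Gpx2, which reduces peroxides in crypt cells, stood at 504, 183 and 241 FPKM in caMKK6 GFP cells and 69.9 and 137 FPKM in control GFP cells, a log2 fold change of 1.51 ± 0.35 (adjusted p = 0.019 by limma). Cbr3 stood at 155, 29.9 and 73.4 FPKM in caMKK6 GFP cells and 16 and 20.2 FPKM in control GFP cells, a log2 fold change of 1.9 ± 0.5 (adjusted p = 0.032 by limma).

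Nqo1 and Hmox1, 2 further NRF2 targets chosen after their values were seen, were not among the calls. Nqo1, a quinone reductase, stood at 88.9, 23.8 and 37.2 FPKM in caMKK6 GFP cells and 31.8 and 36.3 FPKM in control GFP cells (adjusted p = 0.63 by limma). Hmox1, haem oxygenase, stood at 3.29, 1.43 and 0.946 FPKM in caMKK6 GFP cells and 1.31 and 2.01 FPKM in control GFP cells (adjusted p = 0.93 by limma). In both genes the groups overlapped. Without control library 1 none of the 6 listed NRF2 targets was called, and without caMKK6 library 1, 2 were, with adjusted p by limma of 0.067 for Gsta4, 0.13 for Gpx2 and 0.1 for Cbr3 without control library 1, and 0.063 for Gpx2 and 0.11 for Cbr3 without caMKK6 library 1.

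The family of glutathione transferases was taken by symbol after the values were seen. Of 19 tested 10 rose, 9 were not called and 0 fell, at a median log2 fold change of 0.79, where 5.16% of all genes tested rose. Gstp3, of the pi class, stood at 25.5, 14.5 and 14.9 FPKM in caMKK6 GFP cells and 2.6 and 2.69 FPKM in control GFP cells, a log2 fold change of 2.36 ± 0.35 (adjusted p = 0.0024 by limma), and its call held through every omission. Gstm1, of the mu class, stood at 385, 541 and 636 FPKM in caMKK6 GFP cells and 135 and 253 FPKM in control GFP cells (log2 fold change 1.46 ± 0.3, adjusted p = 0.012 by limma, 0.084 without control library 1). Members of a class are similar in sequence, Gsta1 and Gstm genes above all, and reads shared between them make single levels uncertain. Without caMKK6 library 1, 6 of the 19 rose, without control library 1, 2 did, and with the length trend removed 4 did.

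A motif for NRF2, TGACNNNGC on either strand, was present in 1 of 8 promoters of the glutathione transferases that rose and in 15% of 9261 promoters of genes tested. The promoter that holds it is that of Gsta3, shown because the gene rose and carries the only match (chr1:21240335-21240634, plus strand, GRCm38.p6, RefSeq, 250 bases before the start to 50 after it, match in capitals). Gsta3 stood at 23, 9.73 and 15.7 FPKM in caMKK6 GFP cells and 3.57 and 5.27 FPKM in control GFP cells, a log2 fold change of 1.6 ± 0.37 (adjusted p = 0.018 by limma, 0.084 without control library 1 and 0.066 without caMKK6 library 1). A window of this length leaves out distant enhancers.
Gsta3: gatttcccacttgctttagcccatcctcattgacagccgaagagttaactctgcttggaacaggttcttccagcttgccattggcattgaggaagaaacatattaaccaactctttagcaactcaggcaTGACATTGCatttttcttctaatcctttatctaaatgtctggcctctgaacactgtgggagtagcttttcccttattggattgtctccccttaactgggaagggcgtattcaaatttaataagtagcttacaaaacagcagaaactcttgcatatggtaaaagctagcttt

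The 12 largest falls likewise had varied roles: Tppp3, Fndc5, Tmem252, Tppp, Hsd3b3, Kbtbd11, Mgll, Naaladl1, Cyp4b1, Adra2a, St3gal1 and B4galnt2. Fndc5, the precursor of the secreted peptide irisin, stood at 1.11, 1.03 and 0.627 FPKM in caMKK6 GFP cells and 14 and 8.93 FPKM in control GFP cells. Every untreated library lay between 8.57 and 11.8 FPKM, above all 3 treated caMKK6 libraries. GFP cells of mice whose mCherry cells carry an active MEK1, on doxycycline at 0.2 mg/mL, also lay below that range, at 2.41 and 2.88 FPKM. In these MEK1 libraries Pla2g5 stood at 32.9 and 20.9 FPKM, C3 at 22.8 and 12.3 FPKM and Trf at 17.8 and 24.8 FPKM. Slpi stood at 7.36 and 2.91 FPKM in them. Cytosolic ribosomal protein genes took 12.5% and 10.3% of all their FPKM. In the caMKK6 against control comparison Fndc5 fell by 2.68 on the log2 scale (SE 0.25, adjusted p = 1.1e-05 by limma). Its mCherry cells gave the same picture, with 0.282, 1.04 and 0.747 FPKM in caMKK6 animals and 18.5 and 11.6 FPKM in controls.

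Naaladl1, a peptidase of the gut brush border, stood at 3.73, 5.26 and 4.05 FPKM in caMKK6 GFP cells and 23.7 and 19.8 FPKM in control GFP cells, a log2 fold change of -2.09 ± 0.29 (adjusted p = 0.0016 by limma). Kbtbd11, a protein with kelch and BTB domains, stood at 1.93, 2.55 and 2.75 FPKM in caMKK6 GFP cells and 15.2 and 12.2 FPKM in control GFP cells, a log2 fold change of -2.11 ± 0.34 (adjusted p = 0.0036 by limma). B4galnt2, which adds the last sugar of the Sda antigen on gut glycans, stood at 71, 65.1 and 67 FPKM in caMKK6 GFP cells and 226 and 290 FPKM in control GFP cells, a log2 fold change of -1.9 ± 0.41 (adjusted p = 0.014 by limma). The 4 calls, Fndc5 included, held through every omission. Groups without overlap were a condition for naming these genes, so their separation adds nothing to the calls.

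Slc30a10, a transporter that exports manganese, and Slc17a4, an organic anion transporter of the brush border, fell as well. Slc30a10 stood at 2.4, 1.05 and 0.995 FPKM in caMKK6 GFP cells and 8.05 and 7.33 FPKM in control GFP cells, a log2 fold change of -1.85 ± 0.28 (adjusted p = 0.0029 by limma). Slc17a4, chosen after its values were seen, stood at 3.25, 2.69 and 2.54 FPKM in caMKK6 GFP cells and 12.7 and 13.6 FPKM in control GFP cells, a log2 fold change of -1.89 ± 0.37 (adjusted p = 0.01 by limma). Both calls held through every omission. Id2, an inhibitor of helix-loop-helix factors and a target of BMP signalling, stood at 5.45, 3.18 and 2.78 FPKM in caMKK6 GFP cells and 10.7 and 9.44 FPKM in control GFP cells, a log2 fold change of -1.24 ± 0.24 (adjusted p = 0.0079 by limma). It was the 1 gene of 20 in the TGF-beta and BMP list to be called.

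Steroid and lipid enzymes followed. Hsd3b3, a 3-beta-hydroxysteroid dehydrogenase, stood at 8.78, 7.73 and 7.12 FPKM in caMKK6 GFP cells and 48.9 and 33.1 FPKM in control GFP cells, a log2 fold change of -2.22 ± 0.42 (adjusted p = 0.0079 by limma). It shares much of its sequence with Hsd3b2, which also fell (adjusted p = 0.012 by limma, 0.08 without control library 1), so the reads of each are uncertain. Mgll, which splits monoacylglycerols and ends endocannabinoid signals, stood at 2.57, 0.763 and 1.53 FPKM in caMKK6 GFP cells and 15.4 and 6.05 FPKM in control GFP cells, a log2 fold change of -2.09 ± 0.47 (adjusted p = 0.016 by limma). Cyp4b1, a cytochrome P450, stood at 0.887, 1.36 and 1.37 FPKM in caMKK6 GFP cells and 12.5 and 4.93 FPKM in control GFP cells (log2 fold change -2.03 ± 0.59, adjusted p = 0.044 by limma). With control library 1 left out the adjusted p was 0.051 for Hsd3b3, 0.11 for Mgll and 0.2 for Cyp4b1. Cyp4b1 also lost its call without any 1 of the 3 caMKK6 libraries, at 0.12, 0.061 and 0.052.

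Genes acting on the cytoskeleton and at the surface made up the rest of the 12 largest falls. Tppp, which promotes tubulin polymerization, stood at 3.37, 14.2 and 9.52 FPKM in caMKK6 GFP cells and 60.3 and 27.9 FPKM in control GFP cells, a log2 fold change of -2.25 ± 0.39 (adjusted p = 0.0064 by limma). Its relative Tppp3 stood at 3.12, 7.58 and 3.06 FPKM in caMKK6 GFP cells and 139 and 9.43 FPKM in control GFP cells, so 1 control library held nearly all of its signal (adjusted p = 0.042 by limma). Adra2a, an adrenergic receptor, stood at 3.51, 5.75 and 5.06 FPKM in caMKK6 GFP cells and 34.3 and 12.8 FPKM in control GFP cells (log2 fold change -1.96 ± 0.44, adjusted p = 0.017 by limma). St3gal1, a sialyltransferase, and Tmem252, a membrane protein, fell by 1.94 and 2.36 on the log2 scale. Leaving out control library 1 gave an adjusted p of 0.051 for Tppp, 0.4 for Tppp3, 0.12 for Adra2a, 0.28 for St3gal1 and 0.061 for Tmem252. Without caMKK6 library 1 it was 0.11 for Tppp3, 0.057 for Adra2a and 0.077 for St3gal1, and St3gal1 also missed the threshold without caMKK6 library 2 or 3, at 0.075 and 0.056, and Tppp3 without caMKK6 library 3, at 0.063.

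**Figure D5:**
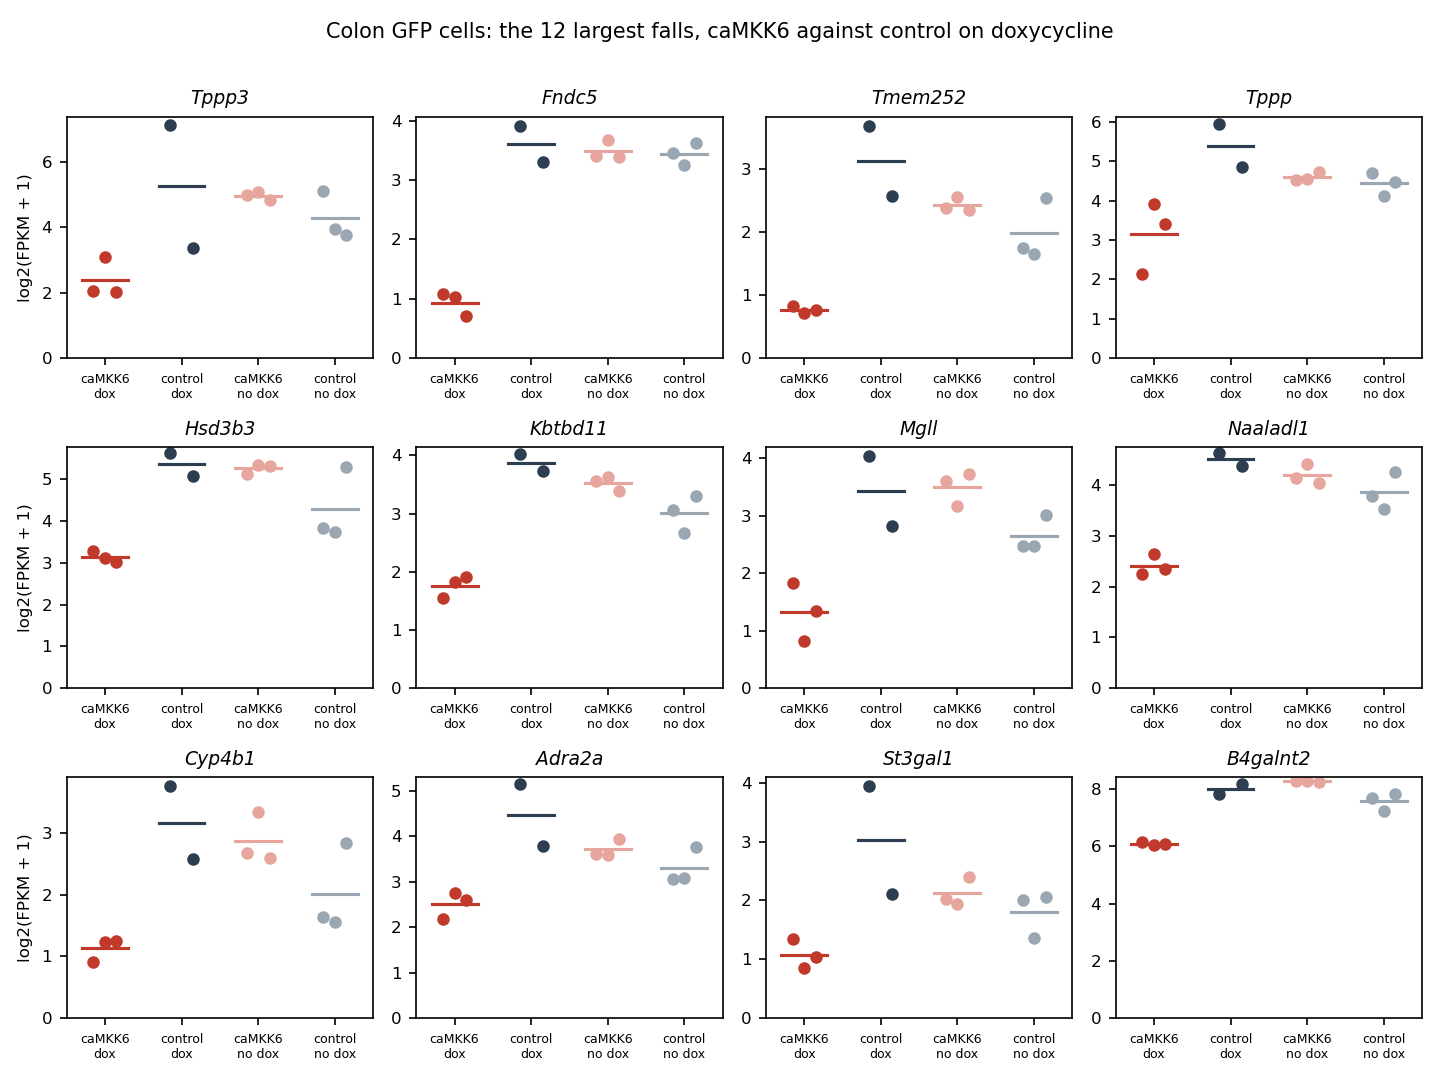
Log2(FPKM + 1) of the 12 largest falls in each GFP library (points) and group mean (line), for caMKK6 and control animals with doxycycline, then for both genotypes without it. Fndc5 and Naaladl1 are lower in the 3 treated caMKK6 libraries than in the other 8, and Tppp3 is high in 1 treated control library at 139 FPKM.

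Cell-type markers were set beside these results. Of 30 absorptive colonocyte markers tested 0 rose and 1 fell, at a median log2 fold change of -0.64. That median turned to 0.22 with 0 falls without control library 1, and 13 fell at a median of -1.63 without control library 2. The one that fell was Mep1a, a brush border metalloprotease, at 37.5, 40.0 and 34.4 FPKM in caMKK6 GFP cells and 220 and 77.2 FPKM in control GFP cells (log2 fold change -1.78 ± 0.37, adjusted p = 0.012 by limma, 0.097 without control library 1). Summed, the 32 markers stood at 11700, 8420 and 6510 FPKM in caMKK6 GFP cells and 22900 and 7790 FPKM in control GFP cells, and the groups overlapped. Car1, a carbonic anhydrase abundant in colonocytes, stood at 1380, 772 and 649 FPKM in caMKK6 GFP cells and 2670 and 2500 FPKM in control GFP cells. Its groups were apart, with a log2 fold change of -1.54 ± 0.51 and an adjusted p of 0.068 by limma. The part of the share of colonocytes in the falls above was not tested.

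Of 21 goblet cell markers tested 2 rose and 0 fell at a median log2 fold change of 0.41, where 5.16% of all genes tested rose. With the length trend removed 0 were called at a median of -0.03, with quantile normalization 0 rose and 1 fell, and the median was 0.06 with 0 calls by limma without control library 1. Spink4, a trypsin inhibitor packed with mucus, stood at 1770, 740 and 947 FPKM in caMKK6 GFP cells and 215 and 498 FPKM in control GFP cells (log2 fold change 1.71 ± 0.39, adjusted p = 0.018 by limma). Capn9, a calpain of mucous cells, stood at 11.6, 12.1 and 11.6 FPKM in caMKK6 GFP cells and 4.02 and 6.54 FPKM in control GFP cells (log2 fold change 1.05 ± 0.31, adjusted p = 0.047 by limma). Muc2, the main mucin, went the other way in level without a call: 526, 1180 and 959 FPKM in caMKK6 GFP cells and 612 and 2680 FPKM in control GFP cells (adjusted p = 0.52 by limma). Omitting control library 1 gave an adjusted p of 0.13 for Spink4 and 0.21 for Capn9, and without caMKK6 library 1 it was 0.066 and 0.1. Capn9 also missed the threshold without caMKK6 library 2, at 0.073, or library 3, at 0.058.

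Among 18 stem and transit-amplifying cell markers tested 0 were called, at a median log2 fold change of -0.33, and of 14 Wnt targets 0 were called at a median of -0.55. Lgr5, the receptor that marks crypt base stem cells, stood at 0.722, 0.721 and 1.97 FPKM in caMKK6 GFP cells and 1.82 and 5.14 FPKM in control GFP cells (log2 fold change -1.01 ± 0.31, adjusted p = 0.054 by limma). Axin2, a feedback inhibitor of Wnt signalling, stood at 2.84, 9.1 and 10.9 FPKM in caMKK6 GFP cells and 11.7 and 24.6 FPKM in control GFP cells. Summed, the 18 markers reached 279, 363 and 399 FPKM in caMKK6 GFP cells and 270 and 709 FPKM in control GFP cells. The result rests on which control is read. Without control library 1, 5 stem cell markers fell at a median of -0.8 and 5 Wnt targets fell at -1.15. Without control library 2, 4 stem cell markers rose and 0 fell at a median of 0.12, and 0 Wnt targets were called by limma at -0.06.

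Markers of cells that a sort could carry along were low, with exceptions. The 15 macrophage and dendritic cell markers summed to 78.8, 49.6 and 43.2 FPKM in caMKK6 GFP cells and 16.5 and 21.7 FPKM in control GFP cells, of which Cd14, the co-receptor for bacterial lipopolysaccharide, gave 44.2, 48.4 and 40.8 FPKM and 15.7 and 20.1 FPKM. Cd14 rose (log2 fold change 1.27 ± 0.21, adjusted p = 0.0036 by limma), its call held through every omission, and 4 of the 15 markers passed the filter with Cd163 listed at 0 in all 5 libraries. The 13 neutrophil markers summed to 44.3, 9.04 and 7.53 FPKM in caMKK6 GFP cells and 12.5 and 0.914 FPKM in control GFP cells, with Mpo, Elane, Ngp and Camp at 0 in all 5 and 0 of the 4 that passed called. The 17 lymphocyte markers summed to 16.1, 2.6 and 1.96 FPKM in caMKK6 GFP cells and 2 and 2.91 FPKM in control GFP cells, so caMKK6 library 1 was the highest for both neutrophil and lymphocyte markers.

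Hepatocyte markers were read as well, beside the rises of the plasma proteins Trf, C3 and Lrg1. The 10 markers summed to 64.9, 63.9 and 59.7 FPKM in caMKK6 GFP cells and 17.7 and 50.5 FPKM in control GFP cells, and the groups did not overlap. Untreated GFP libraries of both genotypes lay between 29.0 and 58.9 FPKM. Of the 6 that passed the filter 1 rose and 0 fell, where 5.16% of all genes tested rose. All 6 had a log2 fold change above 0, at a median of 0.65, and none of the 10 was at 0 in all 5 libraries. The 1 that rose was Alb, serum albumin, at 5.68, 14.6 and 3.92 FPKM in caMKK6 GFP cells and 1.09 and 0.857 FPKM in control GFP cells (log2 fold change 2.02 ± 0.55, adjusted p = 0.035 by limma). The adjusted p of Alb was 0.066 to 0.084 in 4 of the 5 omissions and 0.023 without caMKK6 library 3. The part of hepatocyte, macrophage, neutrophil and lymphocyte RNA in the rises was not tested.

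Clock genes moved in both directions. Of 16 tested 2 rose and 3 fell, at a median log2 fold change of -0.01. Arntl and Npas2, which encode partners in the activating complex of the clock, and Cry1, which encodes a repressor of it, fell. Arntl stood at 4.46, 5.83 and 4.62 FPKM in caMKK6 GFP cells and 17.2 and 7.83 FPKM in control GFP cells, a log2 fold change of -1.1 ± 0.27 (adjusted p = 0.026 by limma). Npas2 stood at 2.92, 7.51 and 5.37 FPKM in caMKK6 GFP cells and 19.3 and 10.4 FPKM in control GFP cells (log2 fold change -1.35 ± 0.31, adjusted p = 0.017 by limma). Cry1 stood at 7.08, 5.52 and 3.4 FPKM in caMKK6 GFP cells and 33.1 and 11.1 FPKM in control GFP cells (log2 fold change -1.73 ± 0.44, adjusted p = 0.029 by limma).

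The clock output gene Tef rose, at 2.54, 8.0 and 7.41 FPKM in caMKK6 GFP cells and 1.24 and 2.11 FPKM in control GFP cells (log2 fold change 1.29 ± 0.32, adjusted p = 0.024 by limma), and so did Nr1d2, which encodes the repressor REV-ERB beta. Control library 1 was the highest of the 5 in all 3 falls, and without it none of the 5 was called, and without caMKK6 library 1 Arntl had an adjusted p of 0.07 and Npas2 of 0.061. Tef had 0.06 without caMKK6 library 2, and Nr1d2 had 0.058 and 0.069 without caMKK6 library 2 or 3. The hour at which animals were killed is not given in the labels, and its part in these values was not tested. The E-box CACGTG, bound by the activating complex, occurs in 10.4% of the promoters of genes tested and in those of Cry1 and Tef among the 5, which are shown with the match in capitals (Cry1 chr10:85185005-85185304, minus strand, and Tef chr15:81802423-81802722, plus strand, GRCm38.p6, RefSeq).
Cry1: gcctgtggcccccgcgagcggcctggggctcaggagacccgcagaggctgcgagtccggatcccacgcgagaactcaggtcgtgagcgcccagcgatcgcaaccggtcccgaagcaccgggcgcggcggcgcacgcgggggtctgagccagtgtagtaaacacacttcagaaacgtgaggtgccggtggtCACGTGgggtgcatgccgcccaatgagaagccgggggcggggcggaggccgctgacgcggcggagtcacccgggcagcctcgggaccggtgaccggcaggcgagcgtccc
Tef: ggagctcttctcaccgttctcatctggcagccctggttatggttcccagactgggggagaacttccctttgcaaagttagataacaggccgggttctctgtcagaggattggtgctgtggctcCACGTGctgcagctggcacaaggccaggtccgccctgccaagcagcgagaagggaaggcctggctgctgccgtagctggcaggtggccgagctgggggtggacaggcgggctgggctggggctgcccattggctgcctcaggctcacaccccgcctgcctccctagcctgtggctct

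Other stress and metabolic lists held few calls. Of 21 genes of the integrated stress response 2 rose and 0 fell, at a median log2 fold change of 0.46. Phgdh, the first enzyme of serine synthesis, stood at 15.1, 6.73 and 10.3 FPKM in caMKK6 GFP cells and 1.28 and 3.49 FPKM in control GFP cells (log2 fold change 1.81 ± 0.43, adjusted p = 0.021 by limma), and Stc2, a secreted glycoprotein, had a log2 fold change of 1.24 ± 0.31 (adjusted p = 0.025 by limma). The adjusted p without control library 1 was 0.12 for Phgdh and 0.15 for Stc2, without caMKK6 library 1 it was 0.074 for Phgdh, and without caMKK6 library 2 it was 0.052 for Stc2. Of 21 hypoxia and glycolysis genes Egln3, a prolyl hydroxylase that marks hypoxia-inducible factors for degradation, and Pgk1, of glycolysis, rose and Ankrd37 fell. Pgk1 had an adjusted p of 0.017 by limma, which became 0.056 without control library 2, and Ankrd37 had 0.046, which became 0.23 without control library 1 and between 0.053 and 0.1 without any 1 caMKK6 library. Egln3 stood at 22.9, 20.3 and 23.1 FPKM in caMKK6 GFP cells and 10.8 and 4.69 FPKM in control GFP cells (log2 fold change 1.5 ± 0.3, adjusted p = 0.01 by limma, 0.059 without control library 2). Anxa3, an annexin, was the 1 gene of 25 in the list of YAP targets and fetal-like epithelium to be called, at 48.6, 51.1 and 44.5 FPKM in caMKK6 GFP cells and 21.9 and 9.25 FPKM in control GFP cells (log2 fold change 1.68 ± 0.35, adjusted p = 0.012 by limma, 0.079 without control library 2).

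Without doxycycline the genotypes were set against each other in the same way, to read what differs before the kinase is switched on. Of 11542 genes 0 were called by limma (0%), with 894 at an unadjusted p below 0.05 and a smallest adjusted p of 0.12, and voom on the recovered reads also called 0, with 790 at an unadjusted p below 0.05. Slc30a10 had the smallest adjusted p of those named, 0.12, at 18, 17 and 20.6 FPKM in caMKK6 GFP cells and 4.58, 4.88 and 9.37 FPKM in control GFP cells. In the treated pair that gene was the lower one in caMKK6 mice. The tuft cell genes Trpm5, Rgs13, Sh2d6 and Pik3r5 averaged lower in untreated caMKK6 GFP cells without a call, Trpm5 at 1.57, 2.64 and 4.4 FPKM against 12.7, 5.85 and 5.62 FPKM in control GFP cells.

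The difference between the treated and the untreated pair was then tested itself. It was called for 67 genes, 46 of them with a higher caMKK6 over control ratio in the treated pair and 21 with a lower one, which is 0.58% of genes tested (0.399% higher and 0.182% lower). All 67 were also called in the treated pair in the same direction. Both tests use the same treated libraries, so this overlap is no independent support. Among the named genes the difference of log2 fold changes was 3.65 ± 0.42 for Pla2g5 (adjusted p = 0.00039 by limma) and 3.78 for Trf (0.017), 2.38 for C3 (0.043) and 2.87 for Etv4 (0.031). It was -2.72 for Fndc5 (0.00053), -2.43 for Naaladl1 (0.012) and -3.33 for Slc30a10 (0.00039). For the other defence genes Nos2 and Duoxa2 it did not pass, at 1.33 (0.069) and 1.42 (0.13). Without control library 1 the count was 1 higher and 2 lower, without control library 2 it was 614 and 445, and without untreated control library 2 it was 3 and 2. Leaving out any other of the 11 libraries gave 10 to 54 higher and 7 to 35 lower.

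Tpm3-rs7, a tropomyosin copy, ranked second among the 12 largest rises that were named, at 22.2, 20.5 and 27.4 FPKM in caMKK6 GFP cells and 0.638 and 0.367 FPKM in control GFP cells. Its untreated levels were 0.209, 0.577 and 0.526 FPKM in caMKK6 GFP cells and 22.8, 25.9 and 0.591 FPKM in control GFP cells, so each library was either high or low whatever its group. In mCherry cells of the treated animals it stood at 9.98, 0.735 and 1.86 FPKM in caMKK6 mice and 0.19 and 0.863 FPKM in controls. Reads of a copy cannot be told apart from those of its parent gene with certainty, and the adjusted p by limma was 0.021 with all libraries and 0.064 without control library 1, 0.053 without control library 2 and 0.056 without caMKK6 library 1.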

How the data were processed

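Messenger RNA was sequenced from sorted cells, 50 ng of total RNA for each library, with an RNA integrity number above 8. The authors deposited 1 table of FPKM values, trimmed with cutadapt 1.12 and aligned to mm10 with STAR 2 per the submitters' processing notes. The counting tool and the annotation are not given in the sources used here. Against GENCODE M21 exon lengths, 100% of deposited values under 1000 reads were whole reads within 0.02, which gave the depths and the reads for voom.

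Groups came from the labels. All 23 colon libraries in 9 groups entered 1 fit with limma 3.58.1 (eBayes with a trend, two-sided) in R 4.3.3. The fit used log2 of the deposited FPKM plus a pseudocount of 1 and kept the 11542 genes that reached 1 FPKM in 2 or more of these libraries, leaving 14 residual degrees of freedom. Fold changes on this scale understate the change of low genes. Named genes are 13 sentinels, the 12 called genes of greatest fold change each way whose groups are apart and whose higher group averages 5 FPKM or more (predicted genes passed over), and up to 4 called members of each list, of which only some are given. Members and lists were chosen with earlier results of these data known. Wfdc2, Wfdc18, Reg3b, Nqo1, Hmox1, Rps6, Rpl12, Eef1a1, Eif4a1, Gstm1, Gsta1, Nr1d2, Slc17a4, Hsd3b2 and Axin2 were chosen after their values were seen. The script was tested on simulated data. Alternatives were another pseudocount, no filter, other scalings, voom, blocks, subtraction and omission of each library.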

Additional observations from a re-analysis of the deposited data

Results flagged for a closer look

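The caMKK6 over control difference of GFP cells differed between animals with and without doxycycline, by a test of the difference itself with limma. On the log2 scale the difference was 6.7 for Slpi, 6.83 for Tpm3-rs7, 3.78 for Trf, 3.65 for Pla2g5, 2.38 for C3, 2.87 for Etv4, 2.62 for Gstp3 and 1.51 for Rpl10a. It was -2.72 for Fndc5, -2.81 for Tmem252, -2.42 for Tppp, -3.2 for Hsd3b3, -2.63 for Kbtbd11, -2.94 for Mgll, -2.43 for Naaladl1, -2.6 for B4galnt2 and -3.33 for Slc30a10. In Slc30a10 both pairs contributed, with caMKK6 GFP cells above control GFP cells without doxycycline and below them with it.

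Outside the gene measurements, human MKK6 RNA was present at 116, 8.5 and 10.6 FPKM in the 3 caMKK6 GFP libraries on doxycycline and at 0 in both control GFP libraries.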

How the results depend on the processing

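Counts of called genes moved more than single directions did. On doxycycline, 595 rises and 214 falls became 395 and 142 with no filter on low values, 6 and 0 with the 5 libraries alone, which leaves few degrees of freedom, and 360 rises with the length trend removed. Leaving out 1 library gave 186 to 858 rises and 81 to 436 falls. Without doxycycline, 0 calls became 2 rises with no filter and 0 to 1 when a library was left out. The difference between both pairs, 46 higher and 21 lower, became 16 and 11 with GFP libraries only, 23 and 13 with no filter, 23 and 13 with a pseudocount of 0.1, 25 higher with median scaling, 15 higher with the groups compared alone and 42 lower with the length trend removed. Leaving out 1 library gave 1 to 614 higher and 2 to 445 lower. The cause was not tested.

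Replicate numbers do not mark shared animals, and deviations of same-numbered libraries correlated at -0.0874 to 0.163. A block on the replicate number gave 1312 rises and 713 falls on doxycycline and a difference called for 302 and 101 genes, and a block on the animal, pairing both colours, gave 725 and 275.

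Among genes not called, log2 fold changes that turned sign were those of Cdkn2b (-0.42 with the length trend removed, -0.02 with median scaling, -0.07 with quantile normalization, -0.0 with voom), Lmnb1 (-0.18 with the length trend removed, -0.09 with quantile normalization, -0.01 with the replicate block) and Dusp6 (-0.14 with the length trend removed, -0.03 with quantile normalization). Leaving out 1 library gave -0.1 to 1.01 for Map2k1, -1.34 to 0.79 for Cdkn1a, -1.23 to 1.24 for Cdkn2b, -0.59 to 0.67 for Lmnb1, -1.27 to 0.14 for Mki67, -0.45 to 0.58 for Dusp6 and -1.67 to 0.46 for Muc2. Values for single named genes and settings kept direction and side of the threshold 1201 times, lost the call 259 times, gained it 13 times and turned sign 19 times.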

Other observations

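Rbm3 and Cirbp, RNA-binding proteins induced by mild cold, both rose, and were picked after their values were seen, as were the genes and families that follow. Rbm3 stood at 69.8, 45.8 and 48.8 FPKM in caMKK6 GFP cells and 11.9 and 15.2 FPKM in control GFP cells, a log2 fold change of 1.92 ± 0.24 (adjusted p = 0.00044 by limma), and its call held through every omission. Cirbp stood at 22.8, 22.6 and 19.7 FPKM in caMKK6 GFP cells and 7.14 and 8.46 FPKM in control GFP cells, a log2 fold change of 1.37 ± 0.29 (adjusted p = 0.014 by limma, 0.063 without control library 1). Untreated libraries of both genotypes lay at 10.4 to 20.7 FPKM for Rbm3.

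Isx, an intestinal homeobox factor that lowers vitamin A formation, fell, at 32.5, 26.3 and 24.3 FPKM in caMKK6 GFP cells and 101 and 105 FPKM in control GFP cells, a log2 fold change of -1.87 ± 0.41 (adjusted p = 0.015 by limma, 0.055 without control library 1). Cd177, a surface glycoprotein, rose, at 190, 195 and 226 FPKM in caMKK6 GFP cells and 28.2 and 78.4 FPKM in control GFP cells, a log2 fold change of 2.08 ± 0.52 (adjusted p = 0.025 by limma, 0.16 without control library 1 and 0.057 without caMKK6 library 1). The 291 tested zinc finger genes named Zfp had a median log2 fold change of -0.2, with 2 rises and 3 falls, and 38 proteasome subunit genes one of 0.51, with 3 rises and 0 falls. Without caMKK6 library 1 the median was -0.06 for the Zfp genes, with 0 rises and 2 falls. For the proteasome genes it was then 0.24, with 0 rises and 0 falls.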
